A study of Mus musculus with 16 samples.

Results

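Keratins, gap junction and adhesion proteins and biliary epithelial genes were followed through 4 purified cell types of the mouse liver. The set holds 10 of the 47729 genes in the count tables. They were looked up by symbol and had been selected on earlier results of these data, among them lower Krt18 and Gjb2 in hepatic stellate cells (HSCs) labelled KO. Values of the HSC label comparison are therefore given as a description, without a test. RNA of endothelial cells (ECs), Kupffer cells, HSCs and hepatocytes from unchallenged livers was sequenced in 16 libraries, 2 for each cell type and genotype label. All mice were adult males of 8 weeks that carried loxP sites around Zeb2 exon 7 together with an R26R eGFP reporter, and all had received tamoxifen at 2 mg per day for 5 days, with RNA taken 2 weeks later. The knock-out label (KO) marks mice that also carried Cdh5-CreERT2, a tamoxifen-inducible Cre under an endothelial promoter, so that Kupffer cells, HSCs and hepatocytes were not its target. Wild-type (WT) mice were littermates without Cre. ECs were sorted by Pan-endo antigen, Kupffer cells by F4/80 and HSCs by their ultraviolet autofluorescence, while hepatocytes were separated by centrifugation.

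Library totals were 12872706 to 15690506 reads on genes, and levels are given as CPM, the reads of a gene scaled to the same total in every library, at which 3 counts stand for 0.191 to 0.233 CPM. Zeb2 was not lower in the ECs labelled KO (199 and 130 CPM) than in WT ECs (106.5 and 105.7 CPM), and its count covers all exons rather than exon 7 alone. Groups are therefore called by their labels. The defining markers of each cell type were highest in its own libraries. Summed over 10 genes, endothelial markers reached 22160 to 31620 CPM in ECs, Kupffer cell markers 45470 to 58840 CPM in Kupffer cells and stellate cell markers 80010 to 90880 CPM in HSCs. Labels do not say that the 2 libraries of a group came from separate animals, so that p-values measure only the spread between these libraries.

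Keratin 8 (Krt8) and keratin 18 (Krt18) pair into the intermediate filaments of simple epithelia and are the keratins of hepatocytes. Keratin 7 (Krt7) and keratin 19 (Krt19) are added to them in cholangiocytes, the lining cells of bile ducts, which also carry the adhesion molecule Epcam, the transcription factor Sox9 and the secreted phosphoprotein osteopontin (Spp1). Connexin 32 (Gjb1) and connexin 26 (Gjb2) form the gap junctions between hepatocytes, and E-cadherin (Cdh1) joins epithelial cells at adherens junctions. ECs, Kupffer cells and HSCs are not epithelial. RNA of these genes in their libraries may be the cells' own or that of epithelial cells in the preparation, and in bulk samples fewer cells of a type and less RNA per cell cannot be told apart.

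On GRCm38, Krt8 (chr15:101996698-102004482, minus strand) and Krt18 (chr15:102028180-102032027, plus strand) are divergent neighbours with 23697 bases between them, and Krt7 (chr15:101411043-101430313) lies on the same chromosome. Krt19 is at chr11:100140810-100148665, Sox9 at chr11:112782224-112787760, Epcam at chr17:87635979-87651129, Spp1 at chr5:104435118-104441050, Cdh1 at chr8:106603351-106670246, Gjb1 at chrX:101376378-101385629 and Gjb2 at chr14:57098600-57104702. Exons of Krt7, Krt8 and Spp1 share bases with an exon of another annotated gene, on the same strand for Spp1. Since Zeb proteins bind E-boxes of the letters CACCTG, the 250 bases before each annotated start were searched for these letters on both strands. Promoters of 7 of the 10 genes matched the RefSeq table by symbol (GRCm38.p6), with 11 starts in all, and Krt19, Sox9 and Cdh1 were not among them. The letters stood before at least 1 start of each of the 7 genes and before 7 of the 11 starts. Of all 32851 starts listed by RefSeq, 17.2% held them, as did 19.4% of the 27025 genes at 1 start or more. Krt18 and Gjb2 are printed at length because their levels in HSCs chose the set, and matches of 4 other genes are printed with 12 bases on each side. Sequences run 5′ to 3′ on the strand of the gene, and capitals mark the match, written CAGGTG where it lies on the opposite strand.
Krt18, chr15:102027966-102028179, up to the first annotated exon: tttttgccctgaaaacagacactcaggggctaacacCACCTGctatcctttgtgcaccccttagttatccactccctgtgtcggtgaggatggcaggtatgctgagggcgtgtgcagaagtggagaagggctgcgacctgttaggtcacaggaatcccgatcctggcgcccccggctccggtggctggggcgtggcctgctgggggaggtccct
Gjb2, chr14:57104703-57104952, minus strand: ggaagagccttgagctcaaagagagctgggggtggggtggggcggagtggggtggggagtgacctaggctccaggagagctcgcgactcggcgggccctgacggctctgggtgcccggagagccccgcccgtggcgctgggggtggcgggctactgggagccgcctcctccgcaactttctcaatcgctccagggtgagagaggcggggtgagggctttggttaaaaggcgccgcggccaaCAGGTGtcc
Krt7, chr15:101412347-101412376, 44 bases before the start and overlapping an annotated exon: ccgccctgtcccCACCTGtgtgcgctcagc
Epcam, chr17:87635780-87635809, 187 bases before the start: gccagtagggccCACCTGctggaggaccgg
Epcam, chr17:87635948-87635977, 19 bases before the start: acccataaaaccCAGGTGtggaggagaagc
Spp1, chr5:104435001-104435030, 98 bases before the first start: gaagtgtaggagCAGGTGggccgggtagtg
Gjb1, chrX:101383552-101383581, 168 bases before the fourth start: gcgggcacagaaCAGGTGggtgcaggctgg
A match describes these letters only and is not a binding site.

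Krt8 and Krt18 were highest in hepatocytes, with lower and unequal levels in the other cell types. Krt8 was at 542 and 496 CPM in WT hepatocytes, 99.1 and 103 CPM in WT ECs, 52.9 and 38.4 CPM in WT Kupffer cells and 31.8 and 39.9 CPM in WT HSCs. Kupffer cells and HSCs overlapped, and no other neighbours in this order did. Krt18 stood at 608 and 616 CPM in WT hepatocytes, 120 and 168 CPM in WT ECs, 57.7 and 67.5 CPM in WT Kupffer cells and 44.8 and 52.3 CPM in WT HSCs, without overlap between cell types. Per kilobase of their longest annotated coding transcript, Krt18 averaged 476 CPM and Krt8 295 CPM in hepatocytes over 4 libraries. The per-length ratio of Krt8 to Krt18 was 0.591 to 0.655 in hepatocytes, 0.450 to 0.678 in ECs, 0.363 to 0.673 in Kupffer cells and 0.268 to 0.560 in HSCs, so that Krt18 exceeded Krt8 in all 16 libraries. Hepatocytes had no count for 36 of the 51 keratin genes, and Krt8 and Krt18 made up 99.1% of keratin reads there, against 88.9% in ECs, 85.1% in Kupffer cells and 84.6% in HSCs. Krt80 was the third keratin of Kupffer cells (mean 15.4 CPM), while Krt19 held that rank in hepatocytes and ECs and Krt10 in HSCs (mean 3.64 CPM).

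Both connexins had the same order of cell types as the hepatocyte keratins. Gjb1 was at 916 and 1017 CPM in WT hepatocytes and at 99.4 and 250 CPM in WT ECs, where the libraries were far apart. It stood at 42.4 and 83.1 CPM in WT Kupffer cells and 28.1 and 75.6 CPM in WT HSCs, which overlapped. Gjb2 was at 343 and 351 CPM in WT hepatocytes, 35.3 and 83.7 CPM in WT ECs, 16.2 and 35.1 CPM in WT Kupffer cells and 13.7 and 20.3 CPM in WT HSCs, of which the last pair overlapped. Per kilobase Gjb1 was the highest of the 10 genes in hepatocytes (mean 668 CPM per kb), and Gjb2 reached 149 CPM per kb. Other connexins led in ECs and HSCs, whereas Gjb1 was also the highest connexin of Kupffer cells (mean 82.5 CPM, beside 45.8 CPM of Gja1). Gja1 (connexin 43) averaged 614 CPM in ECs and 217 CPM in HSCs and Gja4 (connexin 37) 241 and 164 CPM, so that Gjb1 and Gjb2 made up 13.3% of connexin reads in ECs and 7.67% in HSCs, against 99.4% in hepatocytes and 65.2% in Kupffer cells.

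Sox9 and Cdh1 were also highest in hepatocytes, although Sox9 is best known in cholangiocytes. Sox9 was at 53.7 and 60.6 CPM in WT hepatocytes, 19.8 and 16.1 CPM in WT ECs, 9.67 and 10.2 CPM in WT HSCs and 7.98 and 5.55 CPM in WT Kupffer cells, without overlap. Cdh1 was at 50.9 and 40.7 CPM in WT hepatocytes and 25.9 and 12.7 CPM in WT ECs, with 5.25 and 10.6 CPM in WT HSCs and 4.02 and 10.7 CPM in WT Kupffer cells, the last 2 overlapping.

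Other genes known from bile ducts had another order. Spp1 was lowest in hepatocytes (49.8 and 50.6 CPM in WT) and highest in ECs (225 and 233 CPM), with Kupffer cells (119 and 178 CPM) and HSCs (85.7 and 74.7 CPM) between them and no overlap, although scaling by TMM factors put hepatocytes above HSCs. Per kilobase it was the highest of the 10 genes in ECs, Kupffer cells and HSCs, at mean levels of 124, 107 and 38.2 CPM per kb. Krt19 was at 6.84 and 9.48 CPM in WT ECs, above WT hepatocytes (3.38 and 3.55 CPM, an order that TMM scaling turned), Kupffer cells (5.37 and 0.522 CPM) and HSCs (0.961 and 1.86 CPM). The Kupffer cell libraries spanned those of hepatocytes and overlapped those of HSCs. Epcam was at 10.5 and 5.13 CPM in WT ECs and at 1.66 CPM or less in every other WT library. Krt7 was at or under 3.12 CPM in all WT libraries, with overlapping ranges in hepatocytes and ECs. Of the 20 cholangiocyte markers outside the set, Cftr, the chloride channel of the ducts, had no count in 15 of 16 libraries. It was at 2.71 CPM in 1 Kupffer cell library, and Sctr, the secretin receptor, was at or under 1.56 CPM. Others of the list were higher, with means of 87.15 CPM for Dcdc2a and 50.2 CPM for Bicc1 in HSCs. Cd24a averaged 28.9 CPM in ECs, and Spint2 124 CPM in hepatocytes and 125.5 CPM in ECs. The 20 summed to 161 to 171 CPM in WT hepatocytes, 199.9 to 201.4 CPM in WT ECs and 168 to 179 CPM in WT HSCs. In WT Kupffer cells the sum was 39.9 to 47.55 CPM.

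**Figure D1:**
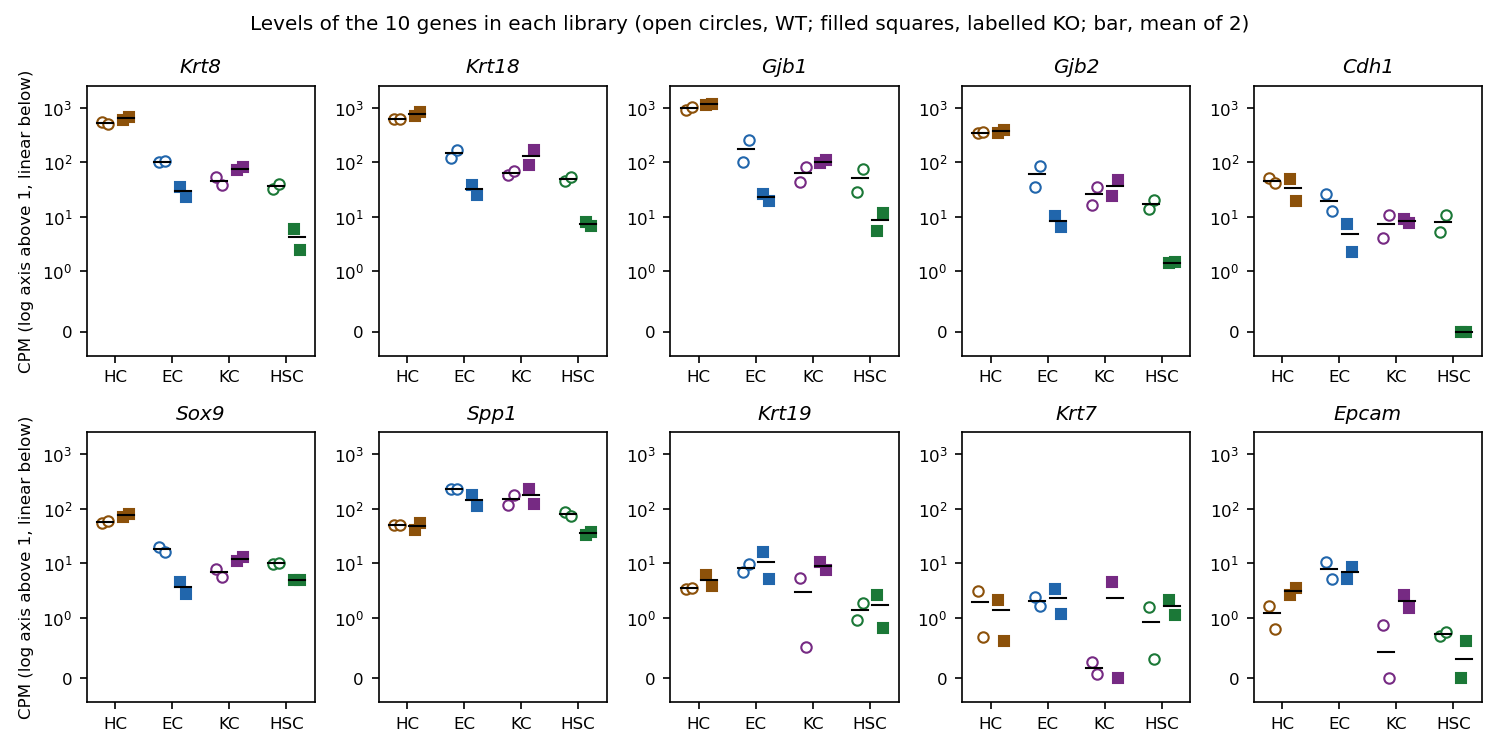
Level of each of the 10 genes in CPM (vertical axis, log above 1 and linear below) in hepatocytes (HC), ECs, Kupffer cells (KC) and HSCs, with 1 symbol per library and the mean of 2 as a bar. Krt8, Krt18, Gjb1, Gjb2, Cdh1 and Sox9 were highest in hepatocytes, and Spp1 was higher in every EC and Kupffer cell library than in the hepatocyte libraries.

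Hepatocytes were compared with each other cell type in 1 edgeR quasi-likelihood fit over the 16 libraries with Benjamini-Hochberg adjustment. TMM factors, which rescale the library totals, were 0.497 to 0.588 in hepatocytes and 1.01 to 1.47 elsewhere, and the median log2 fold change of all genes was -0.54 against ECs, -0.24 against Kupffer cells and -0.60 against HSCs. Against ECs 6 members passed an adjusted p of 0.05, all higher in hepatocytes (25.5% of 17214 genes were called higher and 33.2% lower). Krt8 was 27.5-fold higher (log2 fold change 4.78, SE 0.30, adjusted p = 1.08e-07), Gjb1 43.9-fold (5.46, SE 0.44, adjusted p = 6.82e-07), Sox9 21.3-fold and Cdh1 10.4-fold, with a median of 3.90 over the 10 genes. Against Kupffer cells the same 6 were called higher (26.3% of all genes) and Spp1 was called lower (29.3%), by -0.64 on the log2 scale (SE 0.23, adjusted p = 0.0336, and 0.122 in the 8 WT libraries alone). Against HSCs 9 members were called higher (24.4%) and none lower (34.0%), with Krt7 left out (log2 fold change 1.48, SE 1.11, adjusted p = 0.268 by the same fit). That fit holds the HSC libraries of both labels, whose values had a part in choosing the set. A fit to the WT libraries alone still holds the WT HSC values and is not free of that choice. Calls against HSCs are therefore given as a description. In the 8 WT libraries alone 6 of the 10 were called (41.8% of 15979 genes, in either direction), namely Krt8, Krt18, Gjb1, Gjb2, Sox9 and Cdh1, the last with a log2 fold change of 3.61 in place of 8.28. Calls were lost there for Krt19 (2.37, edgeR adjusted p = 0.105), Epcam (1.79 in place of 3.09, edgeR adjusted p = 0.308) and Spp1 (0.40 in place of 1.02, edgeR adjusted p = 0.256). At library totals without TMM factors 7 members passed against ECs, Spp1 being the additional one, 7 against Kupffer cells and 6 against HSCs. The median log2 fold change of all genes was then -1.85, -1.24 and -1.67 in that order. The shares of all genes called on that scale are not given here, so these counts have no background beside them. On that scale 3 genes turned direction, Krt19 against ECs (0.21 to -1.17) and Kupffer cells (0.68 to -0.31), Krt7 against ECs (0.93 to -0.41) and Spp1 against HSCs (1.02 to -0.11), whereas Krt8, Krt18, Gjb1, Gjb2, Sox9 and Cdh1 were called higher in hepatocytes on both.

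In ECs, the target of the Cre line, the hepatocyte keratins and both connexins were lower under the KO label. Krt8 was at 99.1 and 103 CPM in WT and at 35.2 and 23.2 CPM in the libraries labelled KO. Krt18 was at 120 and 168 CPM in WT against 38.1 and 25.4 CPM. Neither gene had overlapping groups. Gjb1 went from 99.4 and 250 CPM to 25.9 and 19.4 CPM, and Gjb2 from 35.3 and 83.7 CPM to 10.1 and 6.53 CPM, again without overlap and with WT libraries further apart than those labelled KO. In edgeR's quasi-likelihood test these 4 of the 10 genes fell (2.08% of 14631 genes were called, 1.97% as lower). Krt18 fell by 2.19 on the log2 scale (SE 0.28, adjusted p = 0.029), Krt8 by 1.80 (SE 0.25, adjusted p = 0.03), Gjb1 by 2.94 (SE 0.45, adjusted p = 0.0361) and Gjb2 by 2.84 (SE 0.46, adjusted p = 0.0406). The count was 0 of 10 without EC KO library 6 and 0 of 10 without EC KO library 46, when only 58 and 3 genes of the whole table passed. At library totals without TMM factors it was 2 of 10 (190 of 14631 genes), with adjusted p = 0.0503 for Gjb1 and 0.0588 for Gjb2 by the same edgeR test. DESeq2 called 6 of the 10, and 983 of the 14631 genes.

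Sox9 was at 19.8 and 16.1 CPM in WT ECs and at 4.46 and 2.71 CPM in ECs labelled KO. Its log2 fold change of -2.34 (SE 0.42) missed the threshold (edgeR adjusted p = 0.0531). It passed with all 16 libraries in the fit (adjusted p = 0.00704) and in DESeq2 (adjusted p = 0.000216). Cdh1 was at 25.9 and 12.7 CPM against 7.45 and 2.29 CPM (log2 fold change -2.02, SE 0.64, edgeR adjusted p = 0.218). The other biliary genes were not called either. Spp1 was at 225 and 233 CPM against 178 and 112 CPM (edgeR adjusted p = 0.289), and Krt19, Epcam and Krt7 overlapped between labels, with log2 fold changes of 0.36, -0.19 and 0.12. All 7 genes from Krt8 to Spp1 had both KO libraries below both WT libraries in CPM, as had 24.1% of the genes tested, and the median log2 fold change of the 10 genes was -1.91 beside -0.01 over all genes.

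Hepatocyte markers moved with these genes in the same libraries. Each of 15 markers such as Alb (albumin) was expressed as a percentage of its mean in WT hepatocytes, and the median over the 15 was 10.6% and 22.9% in WT ECs and 2.41% and 1.98% in those labelled KO. Of the 15 markers 14 were called lower in ECs labelled KO (1.97% of 14631 genes were), with a median of -2.93 on the log2 scale. None of the 15 was at 0 in any group. Their summed level was 16880 to 34850 CPM in WT ECs and 2942 to 3898 CPM under the KO label. Of 10 stellate cell and 10 lymphocyte markers all were also below 0 in this comparison (medians -1.25 and -1.35), and of 10 Kupffer cell markers all were above 0 (median 0.84), without a call. Neutrophil markers were below 0 for 6 of 7 tested (median -1.79) and erythroid markers for 4 of 4 (median -0.65). Sums of both lists overlapped between labels. They were 28.5 and 148.5 CPM in WT against 37.8 and 10.6 CPM for neutrophil markers, and 121 and 294 CPM against 104.5 and 141 CPM for erythroid markers. The part of these cells in the difference of the keratins and connexins was not tested.

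**Figure D2:**
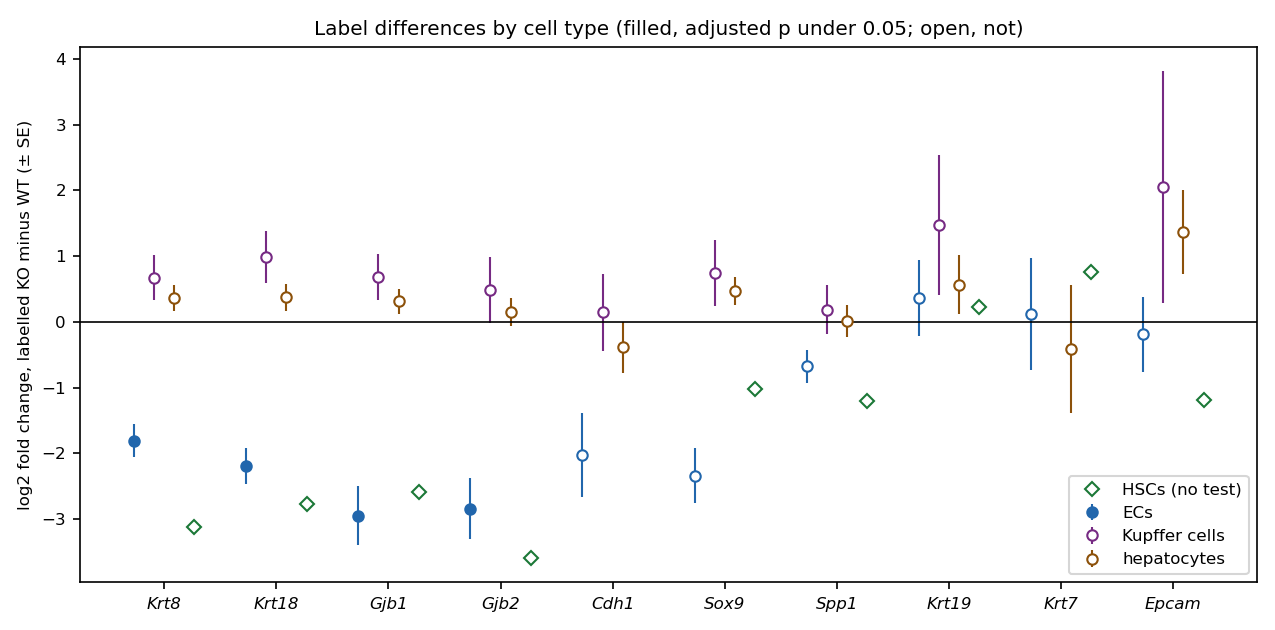
Log2 fold change of the libraries labelled KO against WT (vertical axis) for the 10 genes, with 1 symbol per cell type, SE bars and filled symbols where the edgeR adjusted p was under 0.05. HSC values have no error bar because they were not tested, Krt7 has no Kupffer cell value, and Cdh1 has no HSC value since both libraries labelled KO had no count. Filled symbols are Krt8, Krt18, Gjb1 and Gjb2 in ECs, at -1.80 to -2.94.

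HSCs labelled KO had the lowest levels of the hepatocyte keratins and connexins in the series. Krt18 was at 44.8 and 52.3 CPM in WT HSCs and at 7.88 and 6.64 CPM in HSCs labelled KO, which gave -2.76 on the log2 scale. Gjb2 was at 13.7 and 20.3 CPM against 1.38 and 1.45 CPM, that is 214 and 317 counts against 20 and 21, which gave -3.59. Krt8 was at 31.8 and 39.9 CPM against 6.01 and 2.42 CPM (-3.12), and Gjb1 at 28.1 and 75.6 CPM against 5.53 and 11.6 CPM (-2.58). With 1 library left out, Krt8 ranged from -3.84 (without KO library 8) to -2.66 (without KO library 20) and Gjb1 from -3.31 (without KO library 20) to -1.73 (without WT library 40). Both groups stood apart for each of these genes, and for 8 of the 10 in all, as for 19.3% of the genes tested. Cdh1 had 82 and 165 counts in WT HSCs and no count in either library labelled KO, which made it at least 38.1-fold lower against a floor of 3 counts per library. Spp1 was at 85.7 and 74.7 CPM against 32.2 and 38.0 CPM and Sox9 at 9.67 and 10.2 CPM against 4.98 CPM in both. Epcam and Krt19 were at most at 2.56 CPM in every HSC library. Across all 14390 genes edgeR called 0% of them between the HSC labels (1259 at an unadjusted p under 0.05). The median hepatocyte marker was at 3.41% and 7.35% of its hepatocyte level in WT HSCs and at 0.487% and 1.13% under the KO label. Their summed level was 5128 to 11290 CPM in WT HSCs and 845 to 2078 CPM under the KO label, and all 15 had a log2 fold change below 0 (median -2.61). Erythroid markers were also below 0 for 4 of 4 tested (median -3.60) and lymphocyte markers for 9 of 9 (median -1.35). Endothelial markers were below 0 for 8 of 10 (median -0.85), but their sums overlapped (2924 and 3208 CPM in WT, 3126 and 3124 CPM under the KO label). Neutrophil markers were above 0 for 6 of 7 (median 1.33). Their sum was 10.05 and 13.7 CPM in WT, 4.98 CPM in KO library 8 and 65.5 CPM in KO library 20. The part of these cells in the lower Krt18 and Gjb2 was not tested.

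Kupffer cells showed the opposite order of labels for most of the 10 genes, but no call. Krt18 was at 57.7 and 67.5 CPM in WT Kupffer cells and at 88.4 and 166 CPM under the KO label (log2 fold change 0.99, SE 0.39, edgeR adjusted p = 0.933). Krt8 went from 52.9 and 38.4 CPM to 71.0 and 82.0 CPM and Gjb1 from 42.4 and 83.1 CPM to 94.6 and 110 CPM. Gjb2, at 16.2 and 35.1 CPM against 24.1 and 47.9 CPM, overlapped between labels. Of the 9 members tested 6 had both KO libraries above both WT libraries, as had 20.5% of all genes, and none passed in edgeR (0% of 13867 genes) or DESeq2, with 1 member, Krt18, at an unadjusted p under 0.05. Krt7 was under the filter, with 4 counts and 1 count in WT, 69 counts in KO library 27 and 0 in KO library 43. The median hepatocyte marker was at 5.24% and 8.18% in WT Kupffer cells and at 9.52% and 11.9% under the KO label, and 14 of the 15 had a log2 fold change above 0. Their summed level was 8878 to 12610 CPM in WT Kupffer cells and 14130 to 16640 CPM under the KO label. Neutrophil markers were above 0 for 8 of 8 tested (median 2.51), with a sum of 289 CPM in KO library 27 and 24.4 to 25.0 CPM in the other Kupffer cell libraries. Endothelial markers were above 0 for 9 of 10 (median 0.56) and stellate cell markers for 8 of 10 (median 0.61). Endothelial sums were 1103 and 1342 CPM in WT and 1898 and 1570 CPM under the KO label. Stellate cell sums overlapped, at 776 and 594 CPM in WT, 1123 CPM in KO library 27 and 554 CPM in KO library 43. The part of these cells in the levels of the keratins and connexins was not tested.

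In hepatocytes, which held the highest levels of these keratins and connexins, no member was called between labels. Krt8 was at 542 and 496 CPM in WT and 598 and 673 CPM under the KO label, and Krt18 at 608 and 616 CPM against 693 and 822 CPM. Gjb1 was at 916 and 1017 CPM against 1123 and 1180 CPM, while Gjb2 overlapped (343 and 351 CPM against 394 and 342 CPM). Sox9 was at 53.7 and 60.6 CPM against 71.0 and 80.3 CPM. Epcam had the largest fitted difference, from 1.66 and 0.818 CPM to 2.64 and 3.44 CPM (log2 fold change 1.37, SE 0.64, edgeR adjusted p = 0.708). Of the 10 genes 6 had both KO libraries above both WT libraries, as had 16.4% of all genes, and none passed in edgeR (0% of 11548 genes), in DESeq2 or at an unadjusted p under 0.05. Hepatocyte markers summed to 144800 to 146300 CPM in WT and 153500 to 158900 CPM under the KO label, with 11 of 15 above 0. Endothelial and Kupffer cell markers were below 0 for 9 of 10 each and stellate cell markers for 8 of 10. Neutrophil markers were above 0 for 4 of 4 tested and erythroid markers for 4 of 5, all but Alas2 (-3.23). Summed erythroid markers were nonetheless lower under the KO label, at 32.3 and 34.0 CPM against 167 and 270 CPM in WT. The part of these cells in the levels of the 10 genes was not tested.

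Label differences were compared between cell types as interaction terms in the 16-library fit. Between ECs and Kupffer cells 5 members differed (2.07% of 17214 genes were called), with log2 differences of -3.18 for Krt18 (SE 0.46, edgeR adjusted p = 0.0148), -3.09 for Sox9 (SE 0.44, edgeR adjusted p = 0.0148), -3.33 for Gjb2, -3.64 for Gjb1 and -2.49 for Krt8. The count was 0 without EC WT library 38 and without EC KO library 46, 1 without Kupffer cell WT library 31, 2 without EC KO library 6 or Kupffer cell KO library 43, and 3 without Kupffer cell WT library 39. Of the 15 hepatocyte markers 12 were called in the same contrast. Between ECs and hepatocytes only Sox9 differed in edgeR (0.0697% of all genes), by -2.85 (SE 0.44, edgeR adjusted p = 0.048). DESeq2 called 5 of the 10 there, and 593 of the 17214 genes. The edgeR count was 3 without EC WT library 34 and 0 in the other 7 fits that left out 1 library. Between Kupffer cells and hepatocytes no member was called by either tool or at an unadjusted p under 0.05 (0.0116% of all genes in edgeR).

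The 10 genes fell at different distances from the hepatocyte markers of the same library. When the level of a gene relative to WT hepatocytes was divided by that of the median marker, Gjb1 gave 0.837 to 1.18 in the 12 EC, Kupffer cell and HSC libraries, so that its share of the hepatocyte level was nearly that of the markers in every one. Gjb2 gave 0.372 to 1.24, with 0.818 and 0.372 in the HSCs labelled KO, where it had 20 and 21 counts. Krt18 gave 0.965 to 2.65 and Krt8 0.414 to 2.81, and Krt18 was above 1 in 11 of the 12. Sox9 gave 1.19 to 3.28 outside HSCs, and 17.9 and 7.75 in HSCs labelled KO, where the markers were lowest and Sox9 was still at 4.98 CPM. Cdh1 gave 3.36 and 3.14 in WT HSCs and 0 in both libraries labelled KO.

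Spp1, Krt19 and Epcam stood above the markers wherever they were detected. Spp1 gave 20.2 to 147 in the 12 libraries, Krt19 1.84 to 193, Epcam 8.44 to 352 where it was detected and Krt7 0.419 to 232 where it was detected. In ECs labelled KO, where the marker median was near 2%, Epcam was at 411% and 697% and Krt19 at 467% and 149% of their mean in WT hepatocytes.

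**Figure D3:**
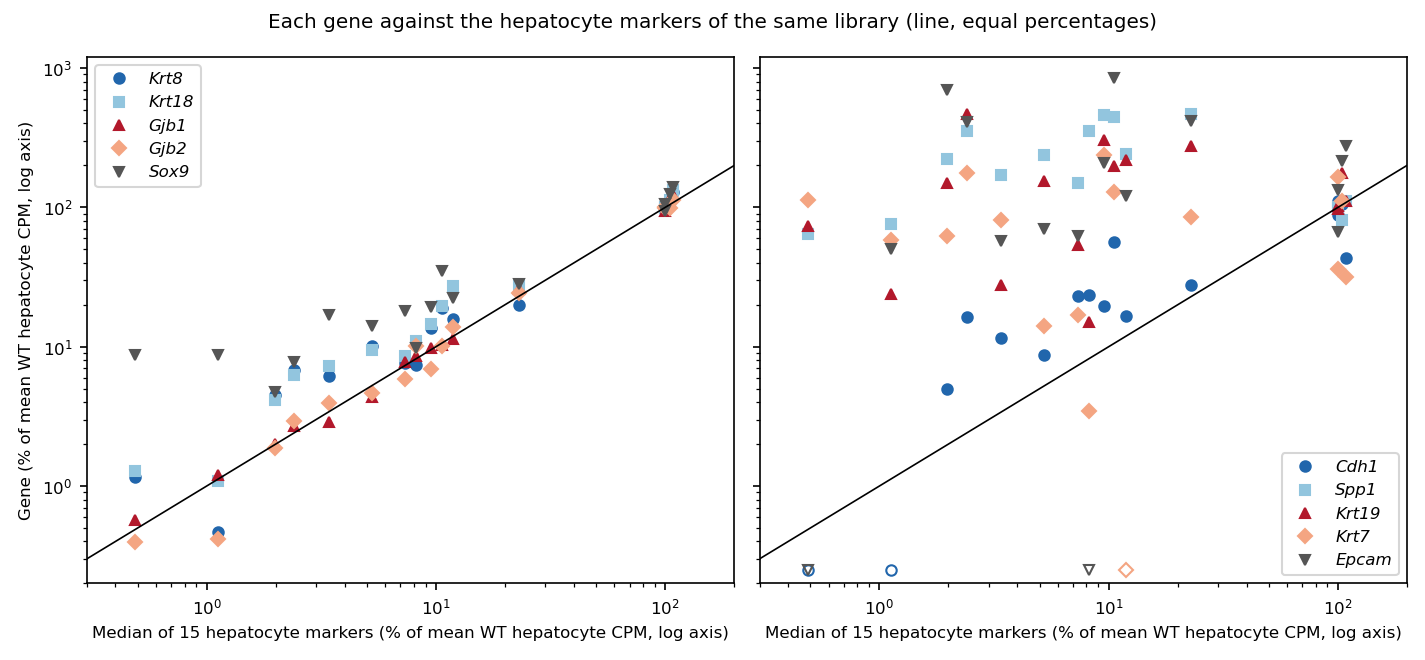
Level of each gene (vertical axis) against the median of 15 hepatocyte markers (horizontal axis), both in percent of the mean of WT hepatocytes on log axes, with 1 symbol per gene and library, a line of equal percentages, and open symbols at the bottom for no count. Gjb1 lay along the line from 0.572% to 122%, and Spp1 was at 64.2% or more in every library.

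**Figure D4:**
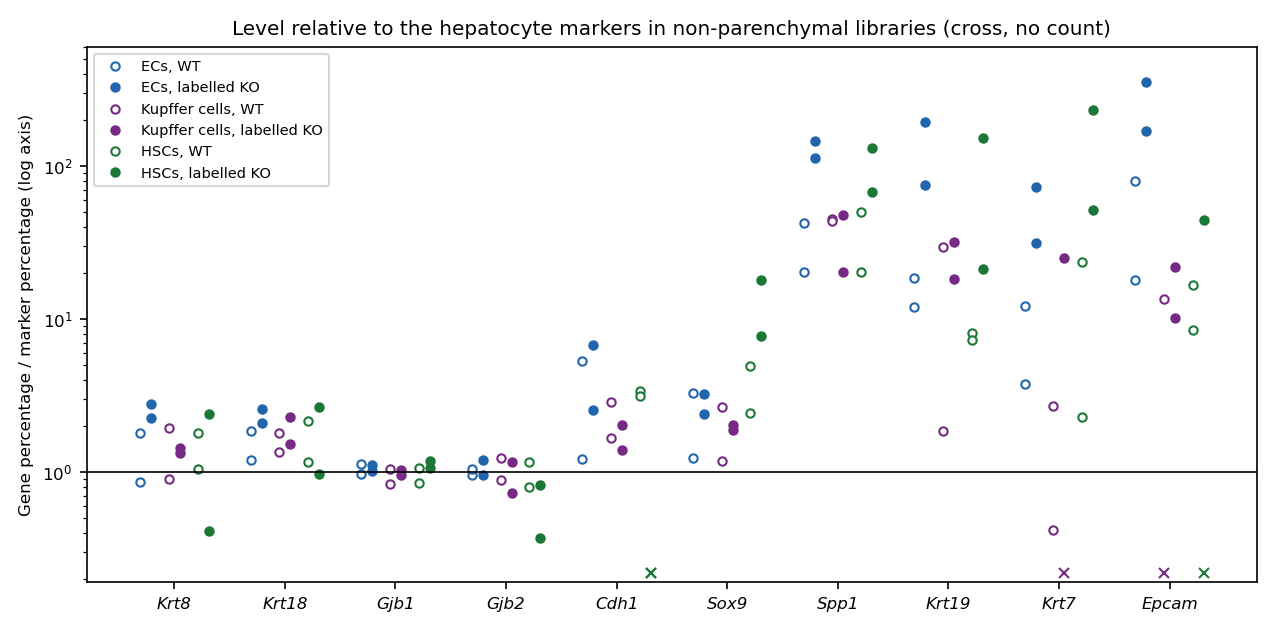
Percentage of each gene divided by that of the median hepatocyte marker (vertical axis, log) in the 12 EC, Kupffer cell and HSC libraries, open for WT and filled for the KO label, with a line at 1 and crosses for libraries without a count. Gjb1 stayed between 0.837 and 1.18, while Spp1 lay between 20.2 and 147.

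The likeness of level profiles was read over the 16 libraries. Pearson's r of log2 CPM was computed against 17214 genes as a description, and high values are common among genes that differ between the same 4 cell types. The genes most like Gjb1 were Ttr, Ahsg and Apoh, plasma proteins secreted by hepatocytes (r = 0.999, 0.999 and 0.998), and those most like Gjb2 were F12, Adh1 and Plg (0.995, 0.995 and 0.994). Krt18 was closest to Gjb2 (0.994), Mup10 and Fbp1, and Krt8 to Krt18 (0.989), Cyp2d9 and Nr0b2. Sox9 was closest to Serpinf1, Cpb2 and Ccbl2 (0.975, 0.972 and 0.969) and Cdh1 to Aox3, Gas2 and Hnf4a, the last a hepatocyte transcription factor (0.970, 0.966 and 0.956). Krt19 was most like Gm11960, Tspan8 and Plet1 (0.896, 0.880 and 0.822), Epcam like Klhdc8a, RP23-325D10.4 and S1pr1 (0.854, 0.836 and 0.832), and Krt7 like Slc5a1, Homez and Gmps (0.870, 0.824 and 0.799), and these 3 members were at low levels. Spp1 was most like B3gnt7, Cd3d and Fasl, the last 2 genes of T and natural killer cells (0.937, 0.933 and 0.933). Lymphocyte markers summed to 539 to 634 CPM in WT Kupffer cells, 159 to 322 CPM in WT ECs, 38.5 to 68.0 CPM in WT HSCs and 4.23 to 7.01 CPM in WT hepatocytes. Under the KO label they summed to 88.8 to 106 CPM in ECs and 14.7 to 27.0 CPM in HSCs, where mean Spp1 was also lower, and to 471 to 506 CPM in Kupffer cells, where mean Spp1 was higher (175 CPM beside 149 CPM in WT). Their part in the level of Spp1 was not tested.

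Other genes of epithelial junctions were read from a list of 24. In ECs 3 of the 23 tested fell under the KO label and none rose in the edgeR test (1.97% of 14631 genes were called lower). Claudin 1 (Cldn1) was at 18.5 and 28.0 CPM in WT and 3.90 and 2.50 CPM under the KO label (log2 fold change -2.86, SE 0.42, edgeR adjusted p = 0.0326). Claudin 3 (Cldn3) was at 38.7 and 87.1 CPM against 12.4 and 6.74 CPM (-2.72, SE 0.47, edgeR adjusted p = 0.0469), and N-cadherin (Cdh2) at 7.54 and 9.87 CPM against 0.488 and 0.417 CPM (-4.24, SE 0.65, edgeR adjusted p = 0.0361). In hepatocytes Cldn3 was the highest of the list at a mean of 225 CPM and Cldn1 the third at 122 CPM, whereas Cdh2 was higher in HSCs (mean 199 CPM) than in hepatocytes (34.8 CPM). Junction genes that ECs share with epithelia were not called, among them Ctnna1 (mean 485 CPM in ECs), F11r (434 CPM) and Ctnnb1 (305 CPM), and Jup, encoding plakoglobin, was highest in HSCs (1320 CPM). The list had 0 calls of 23 in Kupffer cells and in hepatocytes by edgeR, where 0% of all genes were called.

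Transcription factors of the biliary and hepatic lineages and Notch targets gave no call between labels in any of the 3 cell types tested. Of 15 listed, 12 were tested in ECs and all 12 had a log2 fold change below 0, with a median of -1.11. Hnf4a was at 13.88 and 21.98 CPM in WT ECs and 4.18 and 1.18 CPM under the KO label (edgeR adjusted p = 0.107), and Foxa2 at 1.88 and 9.24 CPM against 0.139 and 0.0695 CPM (edgeR adjusted p = 0.0837). Hes1, a Notch target that ECs express themselves, was at 241 and 254 CPM against 213 and 261 CPM. Of the 20 cholangiocyte markers outside the set, those tested gave no call between labels either. In ECs 11 of the 16 tested were below 0, with a median log2 fold change of -0.53. All 20 summed to 199.9 to 201.4 CPM in WT ECs and 186 to 207 CPM in those labelled KO, of which Spint2, at a mean of 124 CPM in hepatocytes, gave 115 to 138 CPM.

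Mesothelial cells of the liver surface also carry Krt7, Krt8, Krt18 and Krt19, and a list of 10 of their markers was uneven between libraries. Among ECs, KO library 6 had the most Krt19 (16.2 CPM) and Krt7 (3.34 CPM). It was highest for 5 of the 10 markers, among them Msln at 17.6 CPM and Upk3b at 12.1 CPM, while WT library 38 was highest for the other 5, among them Wt1 and Slpi. Krt7 was highest in KO library 27 among Kupffer cells (4.55 CPM, 7 of 10 markers highest), in KO library 8 among HSCs (2.14 CPM, 6 of 10) and in WT library 29 among hepatocytes (3.12 CPM, 1 of 10). In Kupffer cells Msln was higher in KO library 43 (14.8 CPM), which had no count of Krt7, than in KO library 27 (11.4 CPM). The 10 markers summed to 89.8 to 129 CPM in WT ECs and 88.6 to 138 CPM in those labelled KO, and to 340 to 452 CPM and 266 to 446 CPM in Kupffer cells. Ezr and Slpi, which other cells also express, made up 59.2% to 82.6% of these sums in ECs and 88.5% to 96.6% in Kupffer cells. Of the 10, 9 were tested between labels in ECs, 9 in Kupffer cells and 8 in hepatocytes, and none was called. In HSCs, without a test, 6 of 7 had a log2 fold change above 0 (median 1.05). The part of mesothelial cells in the levels of Krt7 and Krt19 was not tested.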

How the data were processed

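The authors deposited raw counts, the number of reads counted per Ensembl mouse gene, in 1 table per library without normalization. The submitters' processing notes name Trimmomatic 0.32, HISAT2 2.1.0, HTSeq 0.9.1, edgeR and GRCm38, and the annotation release and strand setting are not given in the sources used here. The labels name a stranded TruSeq mRNA kit and the description of the series Smart-seq2. The 5 summary lines of the counter stayed out of all totals (2.88% to 4.91% of reads were ambiguous). Identifiers were compared with GENCODE mouse release 21, which holds 98.9% of them.

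Libraries were grouped by cell type and genotype label. For each cell type, labels were compared by edgeR 4.0.16 under R 4.3.3 (filterByExpr, TMM, quasi-likelihood test, Benjamini-Hochberg adjusted p under 0.05 over all genes), and in 1 fit over 16 libraries for comparisons of cell types and interaction terms. The 4 cell types may share livers, which those fits ignore. Scripts were tested on simulated data. Transcript lengths were those of the longest CCDS transcript. Likeness used log2 CPM with a prior count of 2. Alternatives were DESeq2 1.42.0, RLE factors, TMM without 857 hepatocyte-enriched genes (at least 10 CPM in WT hepatocytes and 8 times WT Kupffer cells), all genes without a filter, a minimum of 10 counts per library, other samples in the fit, each library left out, and, chosen after seeing the data, library totals without TMM.

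Members and gene lists were chosen with earlier results of these data known. The text names all members, and from the lists and both families up to 4 called genes with the largest change per comparison, the 3 highest per cell type, the 3 most alike genes per member, and Zeb2. Cftr, Sctr, Hnf4a, Foxa2, Hes1, Jup and the mesothelial markers, where outside that rule, were named after their values were seen. The floor of 3 counts covers counting error only. Some sequence matches and list genes are not reported here.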

Additional observations from a re-analysis of the deposited data

Results flagged for a closer look

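The label difference of 5 genes was not the same in ECs and Kupffer cells by a test of that difference, with log2 differences (ECs minus Kupffer cells) of -3.64 for Gjb1, -3.33 for Gjb2, -3.18 for Krt18, -2.49 for Krt8 and -3.09 for Sox9. With 1 library left out, 0 to 5 genes were called. Sox9 also differed between ECs and hepatocytes, by -2.85, in a comparison that called no gene of the set in 7 of the 8 fits with 1 library left out.

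In HSCs both libraries labelled KO were below both WT libraries, and in Kupffer cells and hepatocytes both were above, for Krt8, Krt18, Epcam, Sox9 and Gjb1. Taken alone, the HSC order held for 19.3% of genes tested, the Kupffer cell order for 20.5% and the hepatocyte order for 16.4%. The share of genes with all these orders together was not computed. The log2 difference of HSCs minus Kupffer cells was -3.80 for Krt8, -3.75 for Krt18, -3.24 for Epcam, -1.76 for Sox9 and -3.26 for Gjb1. That of HSCs minus hepatocytes was -3.48, -3.14, -2.56, -1.49 and -2.90 in the same order. These differences were not tested, since the HSC comparison chose the genes. Epcam had 12 counts or fewer in each HSC library. With 1 library left out, its log2 fold change went from -1.19 to between -6.53 and -0.20 in HSCs and from 2.05 to between 1.04 and 7.95 in Kupffer cells.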

How the results depend on the processing

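No paired analysis was possible because groups share no replicate number. Of 10 members, the count called in ECs between labels was 4 to 6 under 6 other settings that keep all libraries and a scaling factor, 2 at library totals without TMM, and 0 to 5 with 1 library left out, where the lone library of a label is assumed to vary like the other groups. The EC and Kupffer cell interaction gave 0 to 5 with 1 library left out. The EC and hepatocyte interaction rose from 1 to 5 in DESeq2, without a filter and with a minimum of 10 counts per library, and gave 0 to 3 with 1 library left out. Under the minimum of 10 counts only 6 of the 10 members were tested in that interaction, and 200 of 8553 genes were called. The cause of the rise was not tested. Calls against hepatocytes kept within 1.5 times of their count under every alternative, as did the counts of 0 in Kupffer cells and hepatocytes.

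Over all genes, calls between EC labels numbered 305 in edgeR, 983 in DESeq2, 1259 without a filter, 489 with the minimum of 10 counts and 190 without TMM. In DESeq2 and without a filter they were 72 and 159 between Kupffer cell labels and 27 and 227 between hepatocyte labels, against 0 in the edgeR test for both. The interactions went from 357 to 1062 and 1302 (ECs and Kupffer cells), from 12 to 593 and 980 (ECs and hepatocytes) and from 2 to 140 and 374 (Kupffer cells and hepatocytes).

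Gjb2 in HSCs ranged from -3.84 to -3.31 (log2) with 1 library left out, the latter without HSC WT library 40, and Krt19 there from -0.71 to 0.77 and Epcam from -6.53 to -0.20. Log2 fold changes that turned sign with 1 library left out, none of them called, were in ECs Krt7 (-0.72 to 0.66), Krt19 (-0.59 to 0.94) and Epcam (-0.68 to 0.47), in Kupffer cells Spp1 (-0.30 to 0.54), Cdh1 (-0.32 to 0.87) and Gjb2 (-0.15 to 1.005), in hepatocytes Krt7 (-1.48 to 0.98), Spp1 (-0.29 to 0.27), Cdh1 (-1.08 to 0.085) and Gjb2 (-0.019 to 0.31), and against ECs in hepatocytes Krt19 (-0.28 to 0.49). Krt19 in that comparison was -0.016 without a filter. Library totals without TMM turned Spp1 between hepatocyte labels to -0.061, Krt7 and Krt19 of hepatocytes against ECs to -0.41 and -1.17, Krt19 against Kupffer cells to -0.31 and Spp1 against HSCs to -0.11.

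Krt7 had at most 69 counts in a library and Epcam at most 151. With 2 libraries per group, their SEs in label comparisons were 0.57 to 1.76 on the log2 scale. Differences of that size were not detectable, and larger ones could also go uncalled. Epcam in hepatocytes, at 1.37 with an SE of 0.64, had an edgeR adjusted p of 0.708.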
